A study of Homo sapiens with 15 samples.

Results

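The C/D box small nucleolar RNA (snoRNA) genes were taken as the array rows, called transcript clusters, whose annotation gives exactly 1 symbol beginning SNORD and a number. The imprinted SNORD113, SNORD114, SNORD115 and SNORD116 copies were left out. Where a symbol had several rows, the row with the highest mean over the 15 arrays was kept. This left 89 genes of 130 such rows, among 135750 transcript clusters without controls. Another 61 rows name a SNORD gene together with other symbols and were not counted.

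The cells were A549, an established line from a human lung adenocarcinoma, kept on permeable inserts with air on one side and measured on Affymetrix Human Clariom D arrays. Non-exposed control cells (NEC) stayed outside the flow, clean air control cells (CA) received the flow without dimethylamine, and dimethylamine vapour was given at 14.9 ppm (low dose, LD), 41.1 ppm (mid dose, MD) and 81.7 ppm (high dose, HD). All cells other than NEC went through 3 rounds of 60 min exposure and 23 h recovery over 72 h, and each group has 3 arrays, each from a pool of 2 wells. By the labels, the LD, MD and HD arrays stand on exposure plates 1, 5 and 6, and CA and NEC have 1 array on each of those plates, so dose and plate are separable only through the control arrays. Every p-value below therefore rests on how much such pools of 1 cell line vary, which may be technical.

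C/D box snoRNAs are short nucleolar RNAs that pair with a target RNA and guide its 2′-O-methylation by fibrillarin (FBL), in a particle that also holds NOP56, NOP58 and SNU13. Most human members are cut out of introns of host genes, many of which encode ribosomal proteins or serve as snoRNA hosts with no protein product. A few, U3 and U14 in particular, are needed for the cleavage of the ribosomal RNA precursor, and U13 for modification of the small-subunit RNA. The mature forms are shorter than the messenger RNAs that silica columns such as the RNeasy columns used here are made to retain, so the signal may come from mature snoRNA, precursor or intron RNA. The part of column recovery in any result was not tested, and lower RNA per cell and fewer cells cannot be told apart in these bulk samples.

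The line showed its epithelial markers. The keratin genes KRT8 and KRT18 had mean log2 signals of 17.72 and 15.12, and ALDH1A1, high in A549, had 19.92. Of the markers of other cells, CD3D (2.95), MS4A1 (3.75), KDR (3.20), PDGFRB (3.91) and PECAM1 (4.38) lay below 4.74, the median of the 612 negative control clusters, while PTPRC (5.35) and VWF (5.62) lay above it and COL1A1 had 10.06. The correlation r of any 2 arrays was 0.974 to 0.984 over all clusters and 0.989 to 0.995 over the 89 genes, and no 2 arrays were identical.

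No deposited file gives the coordinates of the probes, but the cluster identifiers carry a chromosome and run along it. The rows of 62 genes lay at their own gene, on the chromosome that RefSeq (GRCh38.p14) gives and within 1000000 bases of the gene by their neighbours in the identifier order. The other 27 rows were not placed there and are counted as placed elsewhere. Of these, 23 were on a chromosome other than that of RefSeq or, for SNORD39, had a symbol that RefSeq does not hold, 3 (SNORD24, SNORD36A and SNORD36C) had no chromosome, and SNORD81 was on the right chromosome but far from the gene. Over 34768 single-symbol clusters, 98.8% were on the chromosome of their gene, so the snoRNA rows stand out from the clusters as a whole. Other small RNA families were not checked by themselves, so this may not be particular to C/D box genes. Each row placed elsewhere is named below by the symbol of the annotation, and its values may belong to a related sequence at another locus. For the 3 rows without a chromosome the place is not known, and it may be that of the gene.

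The rows differed widely in level. The median of the gene means was 7.84 on the log2 scale. For the 21 symbols with several rows, the highest row was kept, so the levels are a description and are not set against those of other clusters. The 62 rows at their own gene had a median of 8.90 and a range of 3.12 to 19.93, and the 27 rows elsewhere had a median of 5.27 and a range of 2.91 to 14.06. Of the 89, 66 lay above the negative control median of the array on all 15 arrays, 54 of them at their own gene, whereas 10 lay above it on none. The median within-group SD was 0.30 for the 89 genes and 0.33 for all clusters.

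**Figure D1:**
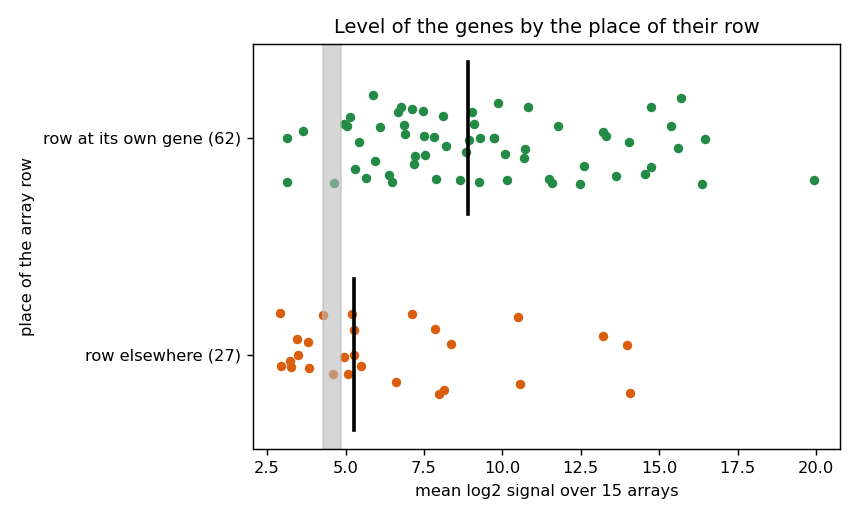
Mean log2 signal over 15 arrays (x axis) of each of the 89 genes, split by whether the array row lies at its own gene or is counted as elsewhere (y axis). Each point is a gene, the black line is the median (8.90 and 5.27), and the grey band is the range of the negative control median over the arrays (4.30 to 4.85).

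The 10 highest means belonged to SNORD13, SNORD13P3, SNORD82, SNORD71, SNORD63, SNORD104, SNORD15B, SNORD105B, SNORD59A and SNORD36C. SNORD13 (U13), on chromosome 8, had 19.91 to 19.93 on every array and so sat at the top of the scale, where a change cannot show. SNORD13P3 is a U13 pseudogene in the span of KIF9 and had a mean of 16.46. SNORD82, in the gene of the nucleolar protein nucleolin (NCL), had 16.37. SNORD71, SNORD63, SNORD105B and SNORD59A had means of 15.68, 15.61, 14.73 and 14.55, and none of these 4 differed between HD and CA at an unadjusted p below 0.05. SNORD36C, whose row has no chromosome, had 14.06. The lowest means were 2.91 for SNORD30 and 2.95 for SNORD44, both rows placed elsewhere and below the negative controls.

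The HD cells were set against CA to ask what the vapour did at the highest dose. By the limma test on all 15 arrays, 0 of the 89 genes passed an adjusted p below 0.05 (0.0435% of all clusters did), and the smallest adjusted p was 0.51. Under the looser criteria that the study used (more than 2-fold with an unadjusted p below 0.05), again 0 passed (0.821% of all clusters). At an unadjusted p below 0.05 alone, 11 genes, or 12.4%, were higher in HD (3.08% of all clusters) and 2 were lower (3.30% of all clusters). The difference HD minus CA had a median of 0.18 over the 89 genes and was positive in 66 of them, beside a median of -0.01 and a positive share of 48.5% over all clusters. Single differences ran from -0.74 for SNORD37, a row placed elsewhere, to 0.89 for SNORD92. The 3 HD arrays lay above all 3 CA arrays for 15 genes (5.19% of all clusters) and below them for 2 (5.61% of all clusters).

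**Figure D2:**
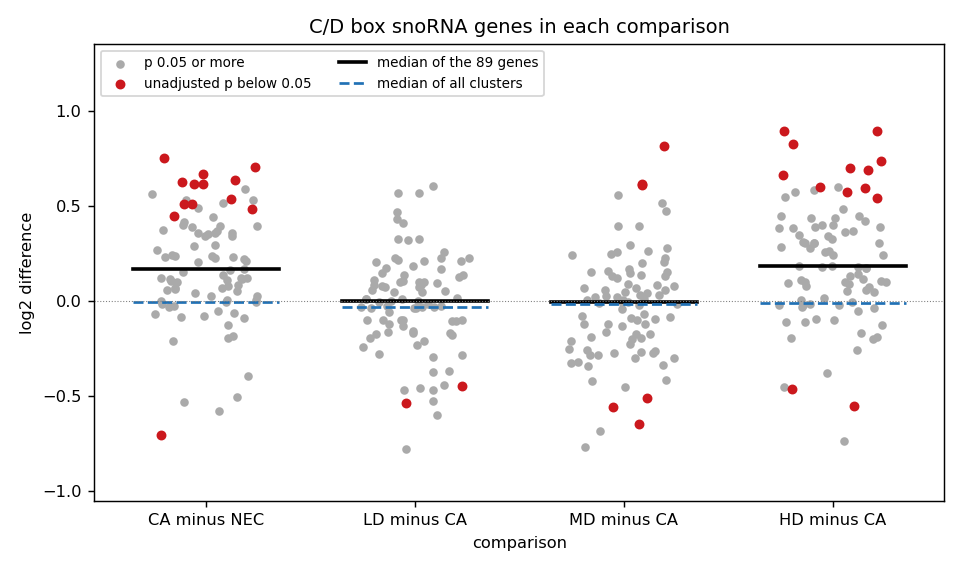
Log2 difference (y axis) of each of the 89 genes in CA minus NEC, LD minus CA, MD minus CA and HD minus CA (x axis). Red points have an unadjusted p below 0.05, the black line is the median of the 89 genes (0.17, -0.00, -0.01 and 0.18) and the dashed line the median of all clusters. The cloud lies above 0 in CA minus NEC and in HD minus CA.

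No gene met the fixed rule for naming genes by a comparison, so the genes named in the comparisons, apart from the brightest and the listed ones, were chosen after their values were seen. U3, coded by the SNORD3 copies, takes part in the first cleavages of the ribosomal RNA precursor. Its 4 copies on the array lie in a stretch of chromosome 17 (SNORD3D at chr17:19112420-19112636, GRCh38.p14, in no span of a protein-coding or long non-coding gene), are transcribed as genes of their own and are near-identical in sequence, so their rows may share RNA. SNORD3D had 11.24, 11.09 and 11.66 on the HD arrays and 10.53, 10.65 and 11.01 on the CA arrays. All HD arrays were above all CA arrays, and the difference was 0.60 ± 0.20 (SE), or 1.51-fold, with a limma adjusted p of 0.55.

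SNORD3B-2 had 13.85, 14.11 and 14.18 in HD and 13.39, 13.47 and 13.65 in CA. Again the groups did not overlap, with a difference of 0.54 ± 0.19 (limma adjusted p = 0.60). SNORD3C (13.01 ± 0.28 in HD and 12.63 ± 0.22 in CA, SD, n = 3 each) and SNORD3A (13.58 ± 0.22 in HD and 13.30 ± 0.17 in CA) had differences of 0.38 and 0.29, and their groups overlapped.

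SNORD14A is a U14 copy in the span of RPS13, and U14 both guides methylation and is needed for cleavage on the way to the small subunit. It had 12.85, 13.35 and 13.25 in HD and 12.22, 12.05 and 12.72 in CA. The lowest HD array was above the highest CA array, and the difference was 0.82 ± 0.29, or 1.77-fold (limma adjusted p = 0.60). The other U14 copy, SNORD14E in HSPA8, had 7.36, 7.94 and 7.47 in HD and 6.48, 7.80 and 7.33 in CA, which overlapped. The list of snoRNAs that act in processing of ribosomal RNA has 7 genes with a row (of 13 listed, with none for U8 and U22). Their median HD minus CA was 0.39, and all 7 differences were positive. At an unadjusted p below 0.05, 3 were higher (3.08% of all clusters), namely SNORD3D, SNORD3B-2 and SNORD14A. These 7 are not independent, since 4 are the U3 copies, whose rows may share RNA. SNORD13 is among these 7 at the top of the scale.

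Guides of single methylation sites were also among the genes with the smallest p. SNORD92, in the span of WDR43, had 8.39, 9.16 and 8.73 in HD and 7.39, 8.50 and 7.72 in CA. HD replicates 2 and 3 were above every CA array and HD replicate 1 lay below CA replicate 2, and the difference was 0.89 ± 0.28, or 1.86-fold (limma adjusted p = 0.51). SNORD104, a guide of the large-subunit RNA in the host SNHG25, had 15.85, 16.09 and 15.82 in HD and 15.18, 14.82 and 15.08 in CA. The difference was 0.89 ± 0.36 with no overlap (limma adjusted p = 0.71).

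SNORD100, a guide of the small-subunit RNA in RPS12, had 11.13, 11.15 and 11.59 in HD and 10.55, 10.25 and 11.01 in CA, a difference of 0.69 ± 0.26 (limma adjusted p = 0.67). Its groups did not overlap. SNORD60 in SNHG19, SNORD111 in SF3B3, SNORD19 in GNL3 and SNORD93 in SNHG26 also had no overlap, with differences of 0.70, 0.57, 0.74 and 0.66. SNORD99 in SNHG12 had a difference of 0.60 with overlapping groups. The 2 genes on the lower side were SNORD96B, at 4.74 ± 0.39 in HD and 5.29 ± 0.18 in CA, and SNORD2, at 3.99 ± 0.16 in HD and 4.45 ± 0.19 in CA (SD, n = 3 each). Both are close to the negative controls, and SNORD2 is a row placed elsewhere.

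**Figure D3:**
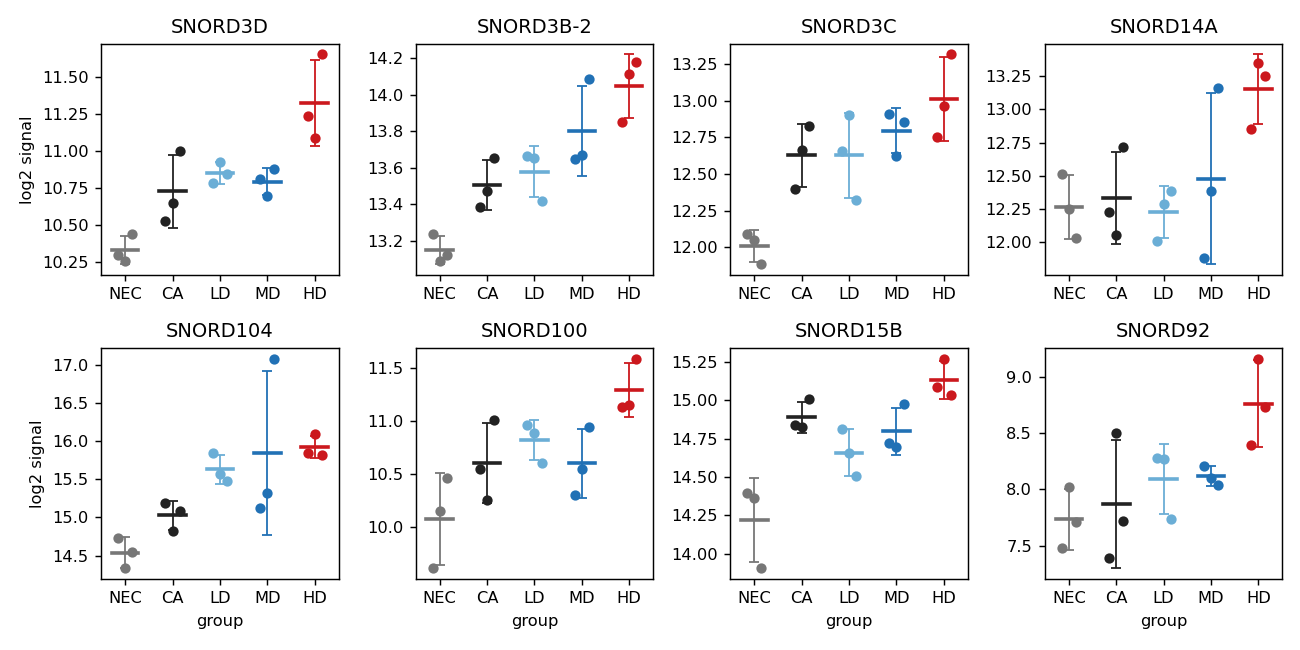
Log2 signal (y axis) of 8 genes on each array of the 5 groups (x axis). Points are arrays, the thick line is the mean and the bar is the SD of 3 arrays. SNORD3D, SNORD3B-2, SNORD14A, SNORD104 and SNORD100 have all HD arrays above all CA arrays, whereas SNORD3C and SNORD92 overlap and SNORD15B is separated from NEC in CA.

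Since all HD arrays stand on plate 6, the differences were also computed within plates. The layout in the methods has fewer exposed cultures on a plate than the pools of a dose group need, and arrays with the same plate label may therefore come from different physical plates. In a fit with the exposure plate as a replicate block, 0 of the 89 genes passed an adjusted p below 0.05 in HD against CA, and the number higher at an unadjusted p below 0.05 was 4 (3.18% of all clusters in that fit), with 1 lower (4.38% of all clusters). The difference of SNORD92 was 0.98 in that fit and that of SNORD3D 0.41, with limma adjusted p-values of 0.43 and 0.76. The median HD minus CA over the 89 genes was 0.18 with the block, and 0.10, with 50 genes positive, when the HD mean was set against the single CA array of plate 6. The same-plate medians were -0.02 for MD, with 41 genes positive, and 0.11 for LD, with 55 positive. CA replicate 3, on plate 6, had the highest median deviation of the CA arrays, at 0.17, against 0.02 and -0.09 for CA replicates 2 and 1.

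MD and LD were set against CA as lower doses, with the same CA arrays. In LD, 0 of 89 genes passed an adjusted p below 0.05 (0% of all clusters) or the criteria of the study (0.524% of all clusters). At an unadjusted p below 0.05, 0 were higher (2.71% of all clusters) and 2, SNORD28 and SNORD73B, were lower (3.63% of all clusters). In MD, again 0 passed an adjusted p below 0.05 (0% of all clusters) or the criteria of the study (0.525% of all clusters). Here 3 were higher (2.81% of all clusters; SNORD99, SNORD104 and SNORD75) and 3 lower (3.37% of all clusters; SNORD59B, SNORD13P1 and SNORD94, a guide of U6 spliceosomal RNA). The medians over the 89 genes were -0.01 in MD and -0.00 in LD, and 43 differences were positive in each. MD replicate 3 stood apart for some genes: SNORD104 had 15.13, 15.32 and 17.08 on the MD arrays and SNORD14A 11.88, 12.39 and 13.16. By its label it is the sample that the study removed from its sequencing data as an outlier. Without MD replicate 3, the median of MD minus CA was -0.09, with 29 of 89 positive. At an unadjusted p below 0.05, 1 gene was then higher (2.77% of all clusters) and 3 were lower (2.85% of all clusters).

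CA was set against NEC to ask what the flow and handling did without the vapour. By limma, 0 of 89 genes passed an adjusted p below 0.05 (0% of all clusters), 0 met the criteria of the study (0.439% of all clusters), and the smallest adjusted p was 0.79. At an unadjusted p below 0.05, 12 genes were higher in CA (2.46% of all clusters) and 1, SNORD77, was lower (2.98% of all clusters). The 3 CA arrays lay above the 3 NEC arrays for 21 genes (4.59% of all clusters) and below them for 0 (5.16% of all clusters). The median difference was 0.17 and 68 of 89 were positive, beside a median of -0.01 over all clusters. This is about the size of HD minus CA, although the 2 comparisons share the CA arrays and hold them on opposite sides.

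SNORD15B, a guide of the large-subunit RNA in RPS3, had 14.84, 14.82 and 15.01 in CA and 14.40, 14.36 and 13.90 in NEC. The lowest CA array was above the highest NEC array, and the difference was 0.67 ± 0.19 (limma adjusted p = 0.79). SNORD3C had 12.40, 12.66 and 12.83 in CA and 12.09, 12.05 and 11.88 in NEC, with a difference of 0.62 ± 0.21 (limma adjusted p = 0.85). The U3 copies SNORD3D, SNORD3B-2 and SNORD3A were higher in CA by 0.40, 0.35 and 0.36, none at an unadjusted p below 0.05.

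SNORD46 (13.05, 13.52 and 13.38 in CA and 12.48, 12.76 and 12.60 in NEC) and SNORD36C (14.01, 14.16 and 14.28 in CA and 13.63, 13.37 and 13.20 in NEC) had differences of 0.71 ± 0.21 and 0.75 ± 0.30. The SNORD46 row is on a chromosome other than that of the gene, the SNORD36C row has no chromosome, and neither had overlapping groups. SNORD69 in GNL3 and SNORD41 in TNPO2 had differences of 0.62 each with no overlap, and SNORD59B in ATP5F1B had 0.63 with overlap. With the exposure plate as a replicate block, the number higher in CA at an unadjusted p below 0.05 was 13 (2.72% of all clusters in that fit) and the number lower 2 (3.24% of all clusters). Without CA replicate 3, 5 genes were higher (2.55% of all clusters in that fit) and 0 lower (2.79% of all clusters).

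HD was also set against NEC, an alternative with both the vapour and the flow on one side. Of the 89 genes, 1 passed an adjusted p below 0.05 in HD against NEC (0.236% of all clusters), 9 met the criteria of the study (1.26% of all clusters), and 28 were higher at an unadjusted p below 0.05 (3.86% of all clusters), with 0 lower (4.50% of all clusters). The called gene was SNORD3D, at 11.33 ± 0.29 in HD and 10.33 ± 0.10 in NEC (SD, n = 3 each), a difference of 0.99 ± 0.20 (SE) with a limma adjusted p of 0.049. The call was lost with the exposure plate as a replicate block (difference 0.80, limma adjusted p = 0.30), with the 6 arrays alone (adjusted p = 0.22) and without any 1 of the 6 arrays (adjusted p from 0.081 to 0.22). With quantile normalization 2 genes were called, and with the filter on low values 6 of the 75 that passed it. The share of all clusters called in those fits was not counted, so these counts cannot be set against it. The next smallest adjusted p-values belonged to SNORD3C (difference 1.01, 0.070), SNORD3B-2 (0.90, 0.070), SNORD15B (0.91, 0.070), SNORD46 (1.01, 0.072) and SNORD100 (1.22, 0.078). The 3 HD arrays lay above the 3 NEC arrays for 40 genes (6.20% of all clusters) and below them for 0 (7.06% of all clusters). The lower doses also had more genes higher than lower against NEC at an unadjusted p below 0.05. LD had 18 higher (2.60% of all clusters) and 1 lower (4.27% of all clusters). MD had 13 higher (2.65% of all clusters) and 0 lower (3.84% of all clusters).

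Across the 5 groups, the mean was highest in HD for 48 of the 89 genes and in NEC for 4, and lowest in NEC for 44 and in HD for 5. How often each group was highest or lowest over all clusters was not counted. The median deviation of the genes from their own 15-array mean was -0.17, -0.16 and -0.22 on the NEC arrays, -0.09, 0.02 and 0.17 on the CA arrays, 0.05, 0.00 and -0.07 on the LD arrays, -0.08, -0.06 and 0.08 on the MD arrays and 0.20, 0.27 and 0.21 on the HD arrays. By this deviation, all 3 HD arrays were above every other array, and all 3 NEC arrays were below every other array. The CA, LD and MD arrays were mixed. By the plain median over the 89 genes, the HD arrays (8.05, 8.16 and 8.12) were again above every other array. The NEC arrays were not below every other array, since NEC replicate 2 had 7.86 and the CA arrays had 7.68, 7.80 and 7.72. The median of all clusters stayed between 4.47 and 4.55 on the 15 arrays.

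**Figure D4:**
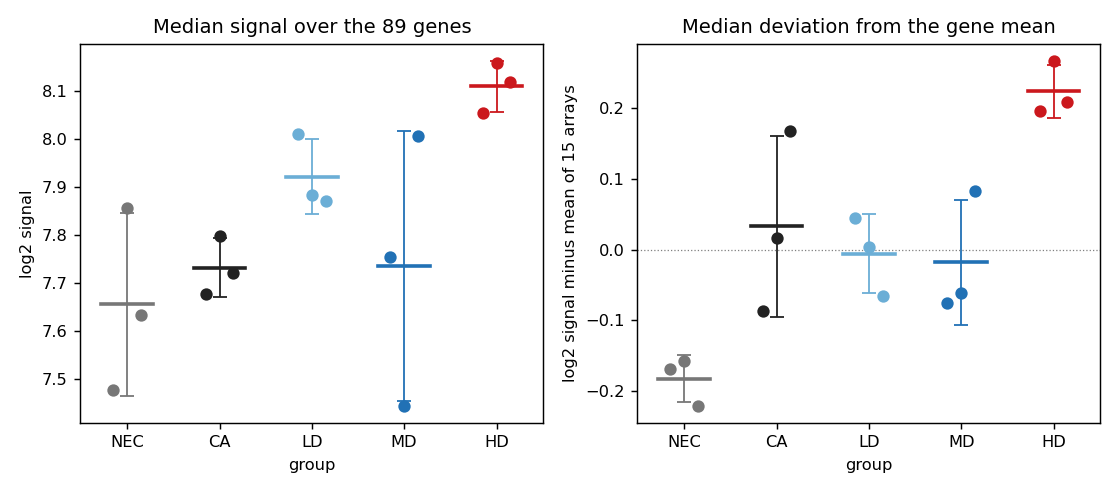
Median log2 signal over the 89 genes (left, y axis) and their median deviation from the gene's own mean over 15 arrays (right, y axis) on each array of the 5 groups (x axis). Points are arrays, thick lines are means and bars are the SD of 3 arrays. On the right the NEC arrays lie between -0.22 and -0.16 and the HD arrays between 0.20 and 0.27.

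A moderated F test over the 5 groups found 0 of 89 genes with an adjusted p below 0.05 (0.109% of all clusters) and 21, or 23.6%, with an unadjusted p below 0.05 (8.0% of all clusters). The smallest adjusted p was 0.31, for SNORD3D. A linear slope on the vapour concentration, fitted to the 12 CA, LD, MD and HD arrays, gave 0 genes past an adjusted p below 0.05 (0.0744% of all clusters). At an unadjusted p below 0.05, 14 genes had a rising slope (3.93% of all clusters) and 1, SNORD2, a falling one (3.61% of all clusters). The steepest was SNORD14A, whose fitted rise over 81.7 ppm was 0.89 (limma adjusted p = 0.39), followed by SNORD92 with 0.84. In the fit with the exposure plate as a replicate block, 3 genes passed the unadjusted threshold of the slope, 2 of them rising (2.67% of all clusters in that fit) and 1 falling (4.38% of all clusters), and 14 that of the F test (7.81% of all clusters).

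The differences were also read by level and by place of the row. The 75 genes with a mean above the negative control median had a median HD minus CA of 0.26, with 61 positive, and the 14 others had -0.08, with 5 positive. For CA minus NEC the medians were 0.21 and 0.07. By place, the rows at their own gene and elsewhere both had a median HD minus CA of 0.18, and all 11 genes higher at an unadjusted p below 0.05 were at their own gene. For CA minus NEC the medians were 0.23 at the gene and 0.07 elsewhere. Among rows with a mean above the negative control median, 58 were at their own gene. Their median HD minus CA was 0.24, with 47 positive, and the 17 elsewhere had 0.31, with 14 positive.

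Other small RNA families of the nucleus were described in the same way, but the places of their rows were not checked. The 74 H/ACA box genes (SNORA), which guide pseudouridylation, had a median HD minus CA of 0.16 and CA minus NEC of 0.21. The 21 small Cajal body RNA genes (SCARNA), which guide modification of spliceosomal RNA, had 0.27 and 0.23. The 63 imprinted SNORD113 to SNORD116 copies that were left out had -0.07 and 0.05, and their array medians (3.86 to 4.23) lay below those of the negative controls on each array. None of the genes of these 3 families passed an adjusted p below 0.05 in HD, MD or LD against CA or in CA against NEC.

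Several SNORD genes are used as reference genes in small RNA PCR. Of 13 listed, 5 have a row, and their median HD minus CA was 0.01. SNORD95, SNORD24 and SNORD44 are rows placed elsewhere, with differences of 0.31, 0.31 and -0.17, and SNORD72, in RPL37, had 9.05 ± 0.13 in HD and 9.07 ± 0.26 in CA. Only SNORD66 and SNORD72 of this list are at their own gene, and none of the 5 had an unadjusted p below 0.05 in any of the 4 comparisons. SNORD66 had 5.78 in HD, 5.77 in CA and 5.32 in NEC.

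The snoRNAs of the growth-arrest host GAS5 had 7 rows of 10 listed, all placed elsewhere. SNORD77, SNORD78, SNORD75 and SNORD74 had HD minus CA of 0.58, 0.40, 0.43 and 0.31, with 0 of the 7 at an unadjusted p below 0.05 and a median of 0.34. The 5 rows of 8 listed for the host SNHG1 (among them SNORD27, SNORD29, SNORD30 and SNORD31) had a median of 0.18, and the single row of 4 for RPL13A, SNORD33, had -0.10. The rows used for these 6 genes too are placed elsewhere. Of the GAS5 list, SNORD77 (mean 4.59), SNORD79 (3.28) and SNORD44 (2.95) lay below the negative control median of 4.74. So did SNORD27 (3.48), SNORD29 (3.22), SNORD30 (2.91) and SNORD33 (3.46).

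The proteins of the particle had differences of both signs. Of the 4 core proteins, 3 have a row of their own. FBL, the methyltransferase, had 14.99 in HD and 14.91 in CA, on a row that has no chromosome. NOP58 had 11.67 in HD and 11.98 in CA, and SNU13 had 10.26 in HD and 10.13 in CA. None had an unadjusted p below 0.05 in HD against CA, and NOP58 alone had one in MD against CA (11.42 in MD and 11.98 in CA, limma adjusted p = 0.79). Of 11 listed assembly factors with a row, 9 had a positive HD minus CA, and the median was 0.43. These 11 include SHQ1 and NAF1, which serve H/ACA box particles, and PIH1D1, whose mean of 4.93 was near the negative control median of 4.74. Only PIH1D1, a subunit of the R2TP chaperone complex, had an unadjusted p below 0.05 (0.49). Of 9 genes for trimming and turnover, only TOE1, a nuclear deadenylase, did (0.84, adjusted p = 0.36).

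Host genes could be set beside the snoRNAs at their own gene. RefSeq spans of a protein-coding or long non-coding gene held 55 of the 62, in 47 host genes, without regard to strand, which the table does not give. Of these hosts 26 have a row of their own symbol, and they pair with 34 snoRNAs. HD minus CA had a median of 0.13 over the 34 snoRNAs and -0.00 over the 26 hosts, and the snoRNA was above its host in 25 of 34 pairs. The signs were the same in 16 of 34. CA minus NEC had a median of 0.35 over the snoRNAs and 0.03 over the hosts, with 24 of 34 above the host. In MD minus CA the order was the other way, with a median of -0.11 over the snoRNAs and -0.01 over the hosts and 12 of 34 snoRNAs above the host, and in LD minus CA the medians were -0.01 and -0.17, with 24 of 34 above. None of the 26 hosts had an unadjusted p below 0.05 in HD against CA or in CA against NEC. In MD against CA 1 host, NOP58, was lower at that threshold (3.37% of all clusters). In LD against CA 3 hosts, TSR1, PHETA2 and RPS3A, were lower (3.63% of all clusters). In both, 0 hosts were higher.

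Several snoRNAs of 1 host did not always have the same sign. NOP58 holds SNORD70, SNORD11 and SNORD11B, whose HD minus CA was 0.14, 0.10 and 0.31, beside -0.31 for NOP58 itself. RPS12 holds SNORD100 and SNORD101, at 0.69 and -0.20, beside 0.32 for RPS12. SF3B3 holds SNORD111 and SNORD111B, at 0.57 and 0.38, beside 0.16 for the host. TSR1 holds SNORD91A and SNORD91B, at 0.48 and -0.10, beside -0.12. Of the list of 40 known snoRNA host genes, 11 have a row with their symbol alone, and their median HD minus CA was 0.10 with 0 at an unadjusted p below 0.05. The places of these 11 rows were not checked. The RPL7A row has no chromosome and the RPL21 row lies on a chromosome other than that of the gene. The RPL4 row had a mean of 3.56, below the negative controls.

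**Figure D5:**
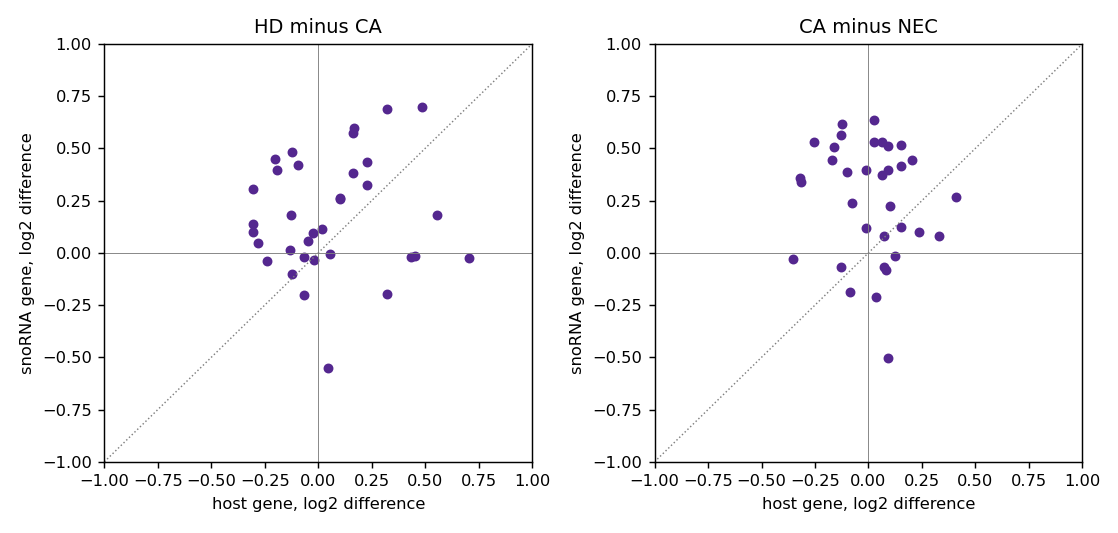
Log2 difference of 34 snoRNA genes (y axis) against that of the host gene whose span holds them (x axis), for HD minus CA (left) and CA minus NEC (right). Each point is a pair of a snoRNA and its host, and the dotted line marks equal differences. Most points lie above it, 25 of 34 on the left and 24 of 34 on the right.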

How the data were processed

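RNA of A549 cells was hybridised to 15 Affymetrix Human Clariom D arrays. Per the study's methods the authors normalised the arrays with the Transcriptome Analysis Console (robust multi-array averaging, RMA). The deposited values are log2 signals per transcript cluster, from 2.08 to 19.93. Of 138745 clusters, 2995 controls were left out. The remaining 135750 clusters went into 1 linear model of the 5 groups in limma 3.58.1 in R 4.3.3 (version 1.17.8 of the data.table package), with 10 residual and 6.32 prior degrees of freedom, and the Benjamini-Hochberg adjustment of the two-sided p-values ran across all of them. The fit was tested on simulated data with known log2 changes. Figures were drawn with matplotlib 3.10.9 and pandas 2.3.3.

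The members, lists and tests were chosen with earlier results of these data known. Genes named by rule were those past an adjusted p below 0.05, in each comparison up to 5 rising and 5 falling most among those that met the study's criteria without overlap, the 10 highest means, and 2 to 4 members of each list. Arrays have no counts, so their number limits the precision. By the labels, each CA array shares its exposure plate with 1 NEC array, and 1 alternative took the plate as a replicate block (8 residual degrees of freedom). Deviations of CA and NEC arrays of the same plate correlated at r of 0.088, 0.044 and 0.082 on plates 1, 5 and 6 over all clusters. Names came from the array annotation and 88 of 89 symbols matched RefSeq. Alternatives were fits of 2 groups, the plate block, quantile normalization, a filter on low values, the lowest row per symbol, NEC in place of CA, and leaving out each array.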

Additional observations from a re-analysis of the deposited data

How the results depend on the processing

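The number of the 89 genes past an adjusted p below 0.05 was 0 in HD, MD and LD against CA, in CA against NEC, in the slope and in the F test under the 2-group fits, the exposure plate as a replicate block, quantile normalization, the filter on low values, the lowest row per symbol and each left-out array. The replicate block changed no call of these comparisons, but HD against NEC lost its call (0). With NEC in place of CA, 1 was called in HD, 9, 1 and 1 met the criteria of the study in HD, MD and LD, and the medians were 0.35 in HD and 0.17 in LD. The number at the criteria of the study, 0 in each comparison, was 1 in HD and 2 in MD with the replicate block, and 1 in HD, MD and CA against NEC with the lowest row per symbol. Leaving out arrays gave 0 to 3 in HD, 0 to 2 in MD, 0 to 1 in LD and 0 to 1 in CA against NEC, with medians of 0.16 to 0.25, -0.10 to 0.04, -0.08 to 0.08 and 0.14 to 0.28. In the main fit, 0.821%, 0.525%, 0.524% and 0.439% of all clusters met the criteria of the study in these comparisons. Apart from HD against NEC (1.26%), the shares in the alternative fits were not counted, so the moved counts are not read as a result about the genes. The number higher in HD at an unadjusted p below 0.05, 11 of 89, was 7 without HD replicate 2, HD replicate 3 or CA replicate 1, beside 3.01%, 3.01% and 2.69% of all clusters. In HD against NEC, chosen with its alternatives after seeing the data, the call of 1 gene was 0 in the fit of 2 groups and without any 1 array (0 to 0), 2 with quantile normalization and 6 of 75 with the filter on low values. The share of all clusters called in these alternatives was not counted. Counting the 62 genes at their own locus, also chosen after seeing the data, left every median within 1 SD of the array medians. For the moved counts the cause was not tested. With 3 arrays a group, the precision is limited, and rows near the negative controls (4.30 to 4.85) and SNORD13 at the ceiling cannot show a change of known size.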
